A study of Mus musculus with 12 samples.

Results

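The RNA of 3 heart samples of mice heterozygous for the I183P form of Nkx2-5 was compared with that of 3 samples of the matching control line, which together make up 6 of the 12 arrays of the series. Members were taken from the sample titles. All mice were adult C57BL/6J males of 15 weeks, and the RNA came from the apex of the heart, which is ventricular tissue. The I183P line (Nkx2-5 I183P/+) carries proline in place of isoleucine at a position of the homeodomain on 1 allele. The control line (Nkx2-5 control/+) carries a knock-in at the same codon that keeps the isoleucine, so both groups had been through gene targeting and both keep a + allele. Of the other 6 arrays, 3 were of the I183M line (Nkx2-5 I183M/+, methionine at that position) and 3 of the delta line (Nkx2-5 delta/+, a deletion of the gene on 1 allele). Whether the samples of a line are separate animals is not stated in the labels, and p-values here measure the spread between these samples, which may be technical.

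Nkx2-5 is a homeodomain transcription factor that heart muscle cells express from the first stages of heart formation into adult life. It binds DNA together with partners such as Gata4 and Tbx5, and it is needed for cardiac muscle, chamber and conduction system development. In people, variants of NKX2-5 are known for septal defects, atrioventricular block and disease of the heart muscle. Proline breaks alpha helices, the fold from which a homeodomain is built, whereas methionine is tolerated in helices.

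Each level below is the log2 of a probe's background-corrected intensity after quantile normalization between the 12 arrays. Each difference is the I183P mean minus the control mean on that scale, with its standard error (SE) from limma. A feature, meaning a gene or an unnamed transcript read from 1 probe, passed the test where limma's Benjamini-Hochberg adjusted p lay below 0.05.

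One control array, replicate 1, was unlike the rest. The share of spots well above background was 99.1% there and 51.2% to 75.2% on the other 11 arrays, and its best rank correlation with an array of its own group was 0.738. Its median processed intensity was 602, and those of the other arrays lay between 34.8 and 92.5. No spot was saturated on any array. Results are therefore given with all arrays and without control replicate 1. I183P replicates 1 and 2 shared a slide with the control and I183M arrays, whereas I183P replicate 3 lay on the slide of the delta arrays and correlated best with delta replicate 1 (rank correlation 0.990, against 0.982 within its own group). The number of arrays limits the precision of every difference.

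After quantile normalization, markers of ventricular muscle read alike in both groups. The mean level of the 13 markers measured lay between 17.19 and 17.32 on control arrays and between 17.19 and 17.31 on I183P arrays. The quantile step gives the brightest probes almost the same value on every array, and Myl3 read 19.13 on each of these. With scaling to the 75th percentile of each array instead, all 13 read above 0 with a median difference of 0.45. The median of all features was then 0.14, so the agreement depended on the scaling. Markers of other organs were largely absent: 6 of the 10 lung and thymus markers were not measured, among them the surfactant genes Sftpa1, Sftpb and Sftpc and the thymus gene Foxn1, which were not well above background. Atrial muscle genes differed between arrays within both groups. Myl7, the atrial myosin regulatory light chain, read 9.52, 6.94 and 11.44 on control replicates 1 to 3 and 11.80, 11.73 and 6.63 on I183P replicates 1 to 3. Sln, which encodes the atrial calcium pump inhibitor sarcolipin, read 9.24, 7.35 and 12.47 and then 13.00, 13.43 and 8.57 on the same arrays. Both were high on control replicate 3 and on I183P replicates 1 and 2, and low on control replicate 2 and I183P replicate 3, so these levels did not follow the genotype.

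Nkx2-5 RNA was as abundant in I183P hearts as in controls within the spread between arrays. Its level was 13.60, 13.53 and 13.58 on the control arrays and 13.81, 13.57 and 13.63 on the I183P arrays. The groups overlapped. The difference was 0.11 ± 0.09 (SE, n = 3 per group), with an adjusted p of 0.521 in limma and a p of 0.3 in an exact two-sided permutation test, whose smallest possible value is 0.1. The array gives 1 value for the gene, does not separate the altered from the + transcript, and says nothing of the protein. With scaling to the 75th percentile of each array in place of the quantile step the difference was 0.60, and it did not pass there either. For comparison, Nkx2-5 in the delta hearts, which keep 1 copy of the gene, read 12.78, 12.86 and 12.89, below every I183P array. The I183P level exceeded the delta level by 0.83 ± 0.09 (SE, adjusted p = 0.0258 in limma). With slide as a block that difference was 0.79 and did not pass (adjusted p = 0.813).

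Across the genome, few transcripts passed the test between I183P and control hearts with all arrays weighted equally. Of 26545 features tested, 15877 of them with a gene symbol, 3 passed the test (0.0113%): Efr3b rose, and Scgb1c1 and an unnamed transcript of chromosome 17 fell. A further measure of breadth is the unadjusted p, which lay below 0.05 for 2274 features (8.57%), 1519 higher (5.72%) and 755 lower (2.84%). Groups did not overlap in 11% of all features with I183P higher and in 7.21% with I183P lower. The count that passed depended on how the arrays were weighted. With array weights 694 features passed, and without control replicate 1 at equal weights 28 did. The array weights were very unequal, from 0.03 for control replicate 1 to 6.61 for I183M replicate 3. I183P replicate 2 had a weight of 4.15 and I183P replicate 3 one of 0.70. Of all features, 60.7% read above 0 and the median difference was 0.08. Without control replicate 1 the share above 0 was 50.6% and the median 0.0028.

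Scgb1c1, which encodes a small secreted protein of the secretoglobin family, had the strongest evidence of any transcript. It read 12.84, 12.72 and 12.79 on control replicates 1 to 3 and 9.55, 8.93 and 8.67 on I183P replicates 1 to 3. No I183P array came near a control array. The level fell by 3.73 on the log2 scale (SE 0.24, n = 3 per group, adjusted p = 9.3e-04 in limma), which leaves 0.0753 of the control level. The I183M arrays (9.36, 8.61 and 9.00) and the delta arrays (9.46, 9.68 and 9.30) lay in the range of the I183P arrays or close to it, so the control line alone read high. Within the first slide, which holds I183P replicates 1 and 2, the difference was -3.48 (adjusted p = 0.159 in limma), and with slide as a block it was -3.54 (adjusted p = 0.0065). The call was kept when any single control or I183P array was left out (adjusted p between 6.6e-04 and 0.0139 in limma).

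Efr3b was the 1 gene that rose. It encodes a membrane protein that anchors the lipid kinase complex making phosphatidylinositol 4-phosphate at the cell surface. Its levels were 10.50, 10.58 and 10.65 in the control samples and 11.60, 11.59 and 11.72 in the I183P samples, so the groups lay far apart for their narrow spread (SD 0.08 and 0.07). The difference was 1.06 ± 0.11 (SE, adjusted p = 0.023 in limma), a ratio of 2.09. In I183M hearts Efr3b read 10.75, 10.73 and 10.81, nearer to the controls, and in delta hearts it read 11.34, 11.45 and 11.72. The difference between the I183P and I183M lines, 0.88, did not pass the test over all features (adjusted p = 0.367 in limma). Leaving out any single control or I183P array other than control replicate 1 ended the call against control (adjusted p between 0.0849 and 0.173 in limma). With slide as a block the difference was 1.02 (adjusted p = 0.122).

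The unnamed transcript lies at chr17:32035750-32056000 of the mm9 build, on the strand that the array layout letters R. It read 10.94, 10.83 and 10.88 on the control arrays and 9.45, 9.35 and 9.80 on the I183P arrays. The level fell by 1.35 on the log2 scale (SE 0.14, adjusted p = 0.023 in limma), to 0.392 of the control level. A probe for a shorter region nested in it, chr17:32044823-32045974 and chosen, like the next, after its values were seen, read 11.71, 11.26 and 11.25 against 9.74, 9.80 and 10.14, a difference of -1.51 with an adjusted p of 0.0781 in limma. On the opposite strand of the longer region, lettered F, a probe read 6.73, 7.46 and 7.52 in controls and 7.39, 7.45 and 7.51 in I183P hearts, with overlap. All I183M and delta arrays read the longer region between 9.27 and 9.66, so here too the control line stood apart from the 3 mutant lines. The call ended on leaving out control replicate 2 or 3 or I183P replicate 1 or 2 (adjusted p between 0.101 and 0.173). The Nkx2-5 gene lies on chromosome 17 as well. Of the 1016 features that could be placed on that chromosome, 9.35% had an unadjusted p below 0.05. The share was 8.57% of all features, placed or not, and between 7.4% and 10.9% on each other autosome. A share over a whole chromosome cannot show a difference confined to the stretch near Nkx2-5, which was not tested.

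**Figure D1:**
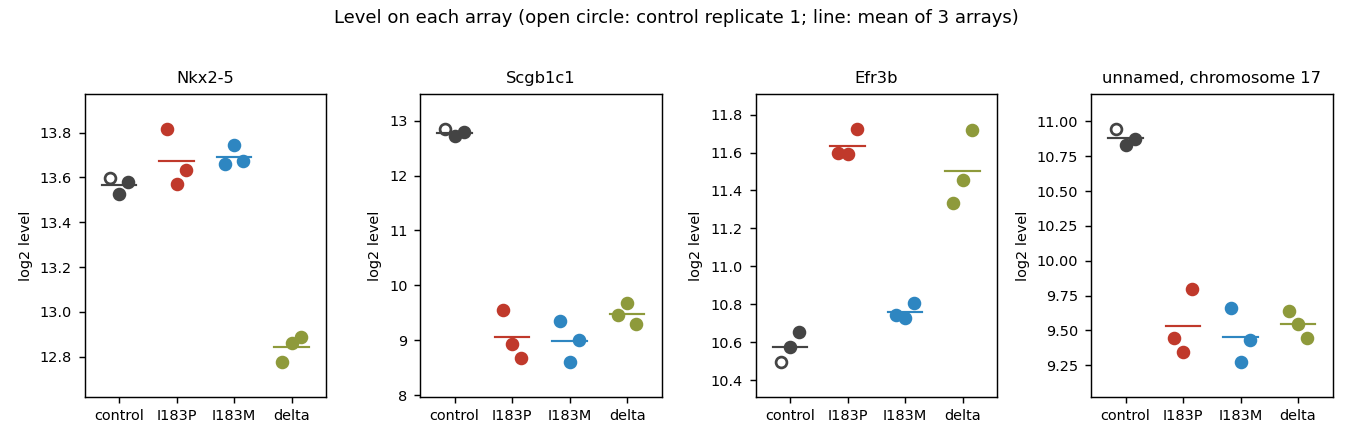
Log2 level on each array of Nkx2-5 and of the 3 features that passed the test, by line, with the mean of 3 arrays as a line and control replicate 1 as an open circle. Scgb1c1 and the chromosome 17 transcript read high in the control line alone, Efr3b read high in I183P and delta, and Nkx2-5 read low in delta alone.

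Leaving out control replicate 1 raised the number of features that passed from 3 to 28 (0.105%), of which 10 were higher and 18 lower, and all 3 of the features above were among them. A total of 23 had a gene symbol. The unadjusted p lay below 0.05 for 2708 features (10.2%). Values in the next paragraphs are given for all arrays and, where stated, without that array.

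Among genes that read higher in I183P hearts, Scn4b has the best known role in the heart, as the beta-4 subunit of voltage-gated sodium channels. It read 13.00, 13.44 and 12.69 on the control arrays and 14.50, 14.46 and 14.37 on the I183P arrays. The I183P arrays were tightly grouped, and the control arrays spread over most of a log2 unit below them. The difference was 1.40 ± 0.18 (SE, adjusted p = 0.0781 in limma), a ratio of 2.63, and without control replicate 1 it was 1.38 (adjusted p = 0.0403). I183M hearts differed from control by 0.55 and delta hearts by 1.02. Pfkfb1, an isoform of the enzyme that sets the level of the glycolytic activator fructose 2,6-bisphosphate, read 10.54, 11.66 and 11.52 against 13.19, 13.23 and 12.91. All I183M and delta arrays also read above every control array (differences from control 1.56 and 1.19). The I183P difference of 1.87 ± 0.30 (SE, adjusted p = 0.206 in limma) became 1.53 without control replicate 1, which lay lowest, and it then passed (adjusted p = 0.0415). Tspan15, a tetraspanin that partners the shedding protease Adam10, likewise passed without that array (0.73, adjusted p = 0.041 in limma). Rhbdl3 (a rhomboid-like membrane protein, 1.01), Zfp608 (a zinc finger protein, 1.00), Tox4 (an HMG-box protein, 0.96), Six4 (a homeobox factor of muscle development, 0.73) and Tspan13 (a tetraspanin, 0.57) complete the named genes that passed there, with adjusted p between 0.0403 and 0.0419 in limma. With all arrays their differences were 1.43, 1.36, 0.73, 1.19 and 0.32 in that order, and the groups overlapped for Tspan13. A second probe of Tox4 gave a difference of -0.01, so its probes disagreed.

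Other genes had small p-values and reached the threshold in neither fit. Cx3cr1, the fractalkine receptor of monocytes and macrophages, read 7.63, 7.97 and 8.86 on the control arrays and 10.23, 9.60 and 10.43 on the I183P arrays. The groups did not overlap, and the difference was 1.93 ± 0.30 (SE, adjusted p = 0.206 in limma), with 0.91 at a second probe. Cx3cr1 in delta hearts differed from control by 1.46, and in I183M hearts by 0.33. St3gal5, which makes the ganglioside GM3, differed by 0.65 (adjusted p = 0.172), and Nrp1, a co-receptor for semaphorins and VEGF, by 0.57 (adjusted p = 0.206). Myl1, the essential light chain of fast skeletal muscle myosin, read 13.18, 13.91 and 13.15 in the control samples and 14.97, 14.85 and 15.86 in the I183P samples. That difference of 1.82 ± 0.30 (SE, adjusted p = 0.206 in limma) was 2.18 at a second probe. Apol10b (1.44) and Ttyh2 (0.65) were also higher, but a second probe gave a difference of -0.68 for Apol10b and of -0.14 for Ttyh2. Apol10b in delta hearts differed from control by 1.30, and in I183M hearts by 0.35.

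Among genes that read lower in I183P hearts, Flvcr2, a membrane transporter of the FLVCR family, gave the smallest p after Scgb1c1 once control replicate 1 was left out. It read 10.97, 9.65 and 9.55 on the control arrays and 8.19, 8.12 and 7.91 on the I183P arrays. The high first control array widened the spread, and the difference was -1.98 ± 0.31 with all arrays (SE, adjusted p = 0.206 in limma) and -1.61 ± 0.12 without it (adjusted p = 0.0021). Cideb, a lipid droplet protein best known from liver lipoprotein assembly, read 11.45, 11.48 and 11.58 against 10.62, 10.44 and 10.06. Its difference was -1.13 ± 0.14 (SE, adjusted p = 0.0756 in limma), -1.19 without control replicate 1 (adjusted p = 0.0403), and -1.83 at a second probe. Nrn1, which encodes the neuronal surface protein neuritin, read 9.63, 10.01 and 10.01 against 8.68, 9.09 and 8.85. The difference of -1.01 (adjusted p = 0.145 in limma) became -1.19 without that array (adjusted p = 0.0165). Heatr5b, a HEAT-repeat protein of vesicle traffic, was similar with -0.76 ± 0.10 (SE, adjusted p = 0.0781), -0.77 without control replicate 1 (adjusted p = 0.0403) and -0.84 at a second probe.

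Ndrg4, a member of the NDRG family that is abundant in heart and brain, read 15.37, 15.47 and 15.48 in the control samples and 13.60, 14.10 and 13.75 in the I183P samples. All I183P arrays lay more than 1 log2 unit below all control arrays, yet the difference of -1.62 ± 0.28 did not pass in either fit (SE, adjusted p = 0.206 in limma, and 0.103 without control replicate 1). Ankrd37 (-0.98), Lad1 (-0.86), Sun3 (-1.09) and Syngr1 (-0.69) also had non-overlapping groups, with adjusted p between 0.204 and 0.206 in limma. A second probe of Syngr1 gave 0.03.

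Several genes that passed without control replicate 1, and not with all arrays, were dim. Pcp4, a calmodulin-binding peptide found in Purkinje fibres, read 7.62, 8.56 and 8.55 on the control arrays and 6.88, 7.41 and 6.98 on the I183P arrays, and it was well above background on 2 of the 3 I183P arrays. Without the first control array its difference was -1.52 ± 0.14 (SE, adjusted p = 0.0077 in limma). Kcnj4, an inward rectifier potassium channel, and Slc17a7, a vesicular glutamate transporter, were also well above background on 2 I183P arrays, and Plekhh1 and Tlcd4 on 1. Each of these 4 read as low on control replicate 1 (6.44, 6.43, 6.78 and 6.68 in that order) as on the I183P arrays, so their differences were -0.62, -0.68, -1.20 and -0.93 with all arrays and -1.24, -1.33, -1.98 and -1.40 without it. They entered the test partly through the arrays on which they read higher. Tmem100, an endothelial protein of the BMP9 pathway, was measured on all 6 arrays and differed by -1.15 without control replicate 1 (adjusted p = 0.0403 in limma). Abca4, Hpn and Slc7a1 complete the named genes that were lower there. For Hpn the difference was -0.01 with all arrays.

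**Figure D2:**
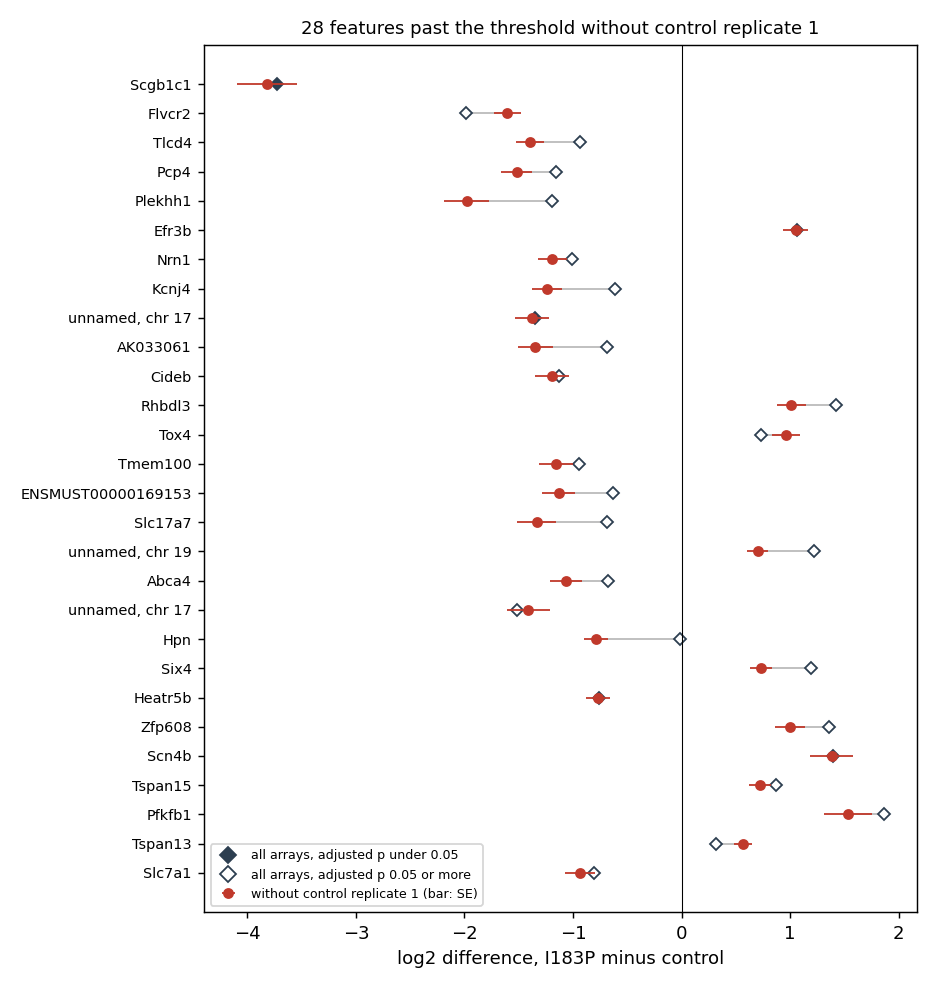
Log2 difference, I183P minus control, of the 28 features that passed without control replicate 1 (red circles with SE), beside the value from all arrays (diamonds, filled for the 3 that passed there). Plekhh1 and Hpn lie far apart in both fits, whereas Scgb1c1, Efr3b, Heatr5b, Scn4b and the longer chromosome 17 transcript lie at almost the same place.

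The promoters of the 28 features were searched for TNAAGTG, the core of the Nkx2-5 binding element, in the 250 bases before the gene's start (RefSeq, GRCm38.p6, both strands). A window was found for 18 of them. The letters occurred in 1, that of Cideb (5.56%), against 10.0% of all 27025 windows. A match is a description of the letters only.

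Cardiac transcription factors, the usual partners of Nkx2-5, did not pass the test as single genes. Of 25 measured, 19 read above 0 with a median of 0.21, beside 60.7% and 0.08 over all features, and without control replicate 1 the count was 13 and the median 0.08. Tbx2, a repressor that keeps chamber genes off in the embryonic heart, read 7.82, 8.64 and 8.65 on the control arrays and 9.29, 9.11 and 9.22 on the I183P arrays. Tbx5, a DNA-binding partner of Nkx2-5, differed by 0.51 (adjusted p = 0.49 in limma) with groups that did not overlap. Gata4 read 12.42, 12.49 and 12.61 against 12.82, 12.70 and 12.66, so the gap between the groups was smaller than the range within either.

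The natriuretic peptides, both classical Nkx2-5 targets and markers of cardiac load, read lower in I183P hearts without passing the test. Nppb, which encodes BNP, read 14.52, 14.44 and 14.21 on the control arrays and 11.47, 11.44 and 12.90 on the I183P arrays. The difference was -2.45 ± 0.73 (SE, adjusted p = 0.49 in limma) and -2.41 without control replicate 1. Across all lines Nppb varied widely within groups, with 13.99, 11.13 and 11.23 in I183M hearts and 13.60, 13.81 and 14.95 in delta hearts. Nppa, which encodes ANP, read 15.49, 15.81 and 15.63 against 14.91, 14.35 and 14.37, a difference of -1.10 ± 0.40 (SE, adjusted p = 0.49). Ccn2, the matricellular growth factor CTGF, read 12.73, 13.55 and 13.45 against 11.57, 12.14 and 12.33, which is -1.23 ± 0.34 (SE, adjusted p = 0.44). Clu, the secreted chaperone clusterin, read 17.59, 17.58 and 17.52 against 16.99, 16.78 and 16.71 (-0.74, adjusted p = 0.267). In each of these 4 genes every I183P array lay below every control array. Groups did not overlap with I183P lower in 7.21% of all features, and in 17.9% without control replicate 1.

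The fetal and stress list as a whole, which includes Nppa, Nppb and Ccn2, had no common direction. Of 22 genes measured, 10 read above 0 with a median of -0.02, and without control replicate 1 the count was 8 and the median -0.16. Myh7, the beta myosin heavy chain, read 13.82, 13.79 and 14.78 in controls and 14.51, 14.76 and 15.52 in I183P hearts, so the groups overlapped. Acta1, skeletal alpha-actin, read 15.43, 15.62 and 14.50 against 14.44, 14.08 and 15.11, again with overlap. Gdf15, a circulating stress cytokine, read 8.98, 9.77 and 10.37 against 8.29, 8.22 and 8.58.

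The contractile apparatus differed little. Of 34 sarcomere and Z-disc genes, 19 read above 0, with a median of 0.02, and none passed the test. The values of such bright genes depend on the scaling: with the 75th percentile of each array as reference all 34 read above 0 with a median of 0.53, while the median of all features was 0.14. Mybpc3, cardiac myosin-binding protein C, differed by -0.30 ± 0.08 (SE, adjusted p = 0.457 in limma), and this direction turned with scaling to the 75th percentile (0.28) or without the quantile step (0.51). Of 14 fast skeletal muscle genes 8 read above 0 with a median of 0.00. Beside Myl1, Casq1, the calcium-storing calsequestrin of skeletal muscle, read 8.51, 7.95 and 8.37 in controls and 9.15, 9.85 and 9.87 in I183P hearts, a difference of 1.35 ± 0.29 (SE, adjusted p = 0.286). The fast skeletal muscle markers Actn3, Myh1, Myh4 and Mylpf were not well above background on these arrays.

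Sodium channel genes read higher with all arrays, 10 of 10 with a median of 0.37. Without control replicate 1 the count above 0 was 6 and the median 0.10, and Scn4b was the 1 member that passed. Of 26 potassium channel genes and partners, 18 read above 0 with a median of 0.23, and 13 with a median of 0.00 without that array. Some members lay above all controls without passing the test. Kcnj5, which forms the acetylcholine-gated channel of the heart, read 12.82, 12.73 and 12.77 against 13.48, 13.44 and 13.55 (0.72 ± 0.20 SE, adjusted p = 0.44 in limma). Kcnj8, the pore of the ATP-sensitive channel of vessels and heart, read 10.09, 9.83 and 10.21 against 10.62, 10.50 and 10.83 (0.60 ± 0.16 SE, adjusted p = 0.405). Kcnip2, the accessory subunit of the transient outward current, went the other way: it read 12.17, 10.75 and 10.43 on the control arrays and 9.52, 9.94 and 9.66 on the I183P arrays. The difference was -1.41 ± 0.39 (SE, adjusted p = 0.44) and -0.92 without control replicate 1, which read highest.

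Conduction system genes and connexins had no common direction. Of 20 measured, 11 read above 0 with a median of 0.14, and 10 with a median of 0.02 without control replicate 1, where Pcp4 passed. Gja1, the main ventricular connexin, read 10.88, 11.33 and 11.29 in controls and 11.63, 11.64 and 11.86 in I183P hearts. Gja5, a connexin of the conduction system and a known Nkx2-5 target, read 7.12, 8.67 and 8.69 against 8.46, 8.48 and 8.55. Tbx3, a repressor that marks pacemaker tissue, read 11.61, 11.75 and 11.79 against 12.16, 11.86 and 11.83, so its groups were separate by a narrow margin.

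Genes of calcium cycling and of autonomic signalling were spread around the median of all features. Of 24 calcium cycling genes 17 read above 0 (median 0.15, and 0.06 without control replicate 1), and of 30 autonomic receptors and cyclic nucleotide enzymes 19 did (median 0.10, and 0.02 without it). S100a1, a calcium sensor that stimulates the sarcoplasmic reticulum pump, differed by -0.39 ± 0.10 (SE, adjusted p = 0.345 in limma). Adcy5, a main adenylyl cyclase of heart muscle, differed by -0.56 ± 0.13 (SE, adjusted p = 0.297). Both directions turned without the quantile step (0.34 and 0.14). Other probes of Adcy5 gave -0.35 and 0.30, the last being the dimmest, so its probes disagreed. Pde3b, a phosphodiesterase of cyclic AMP, read 7.12, 9.50 and 9.55 in controls and 10.74, 10.55 and 10.47 in I183P hearts. The difference of 1.86 was 1.11 without the low first control array (adjusted p = 0.0683), so the size of this value rests in part on that array.

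**Figure D3:**
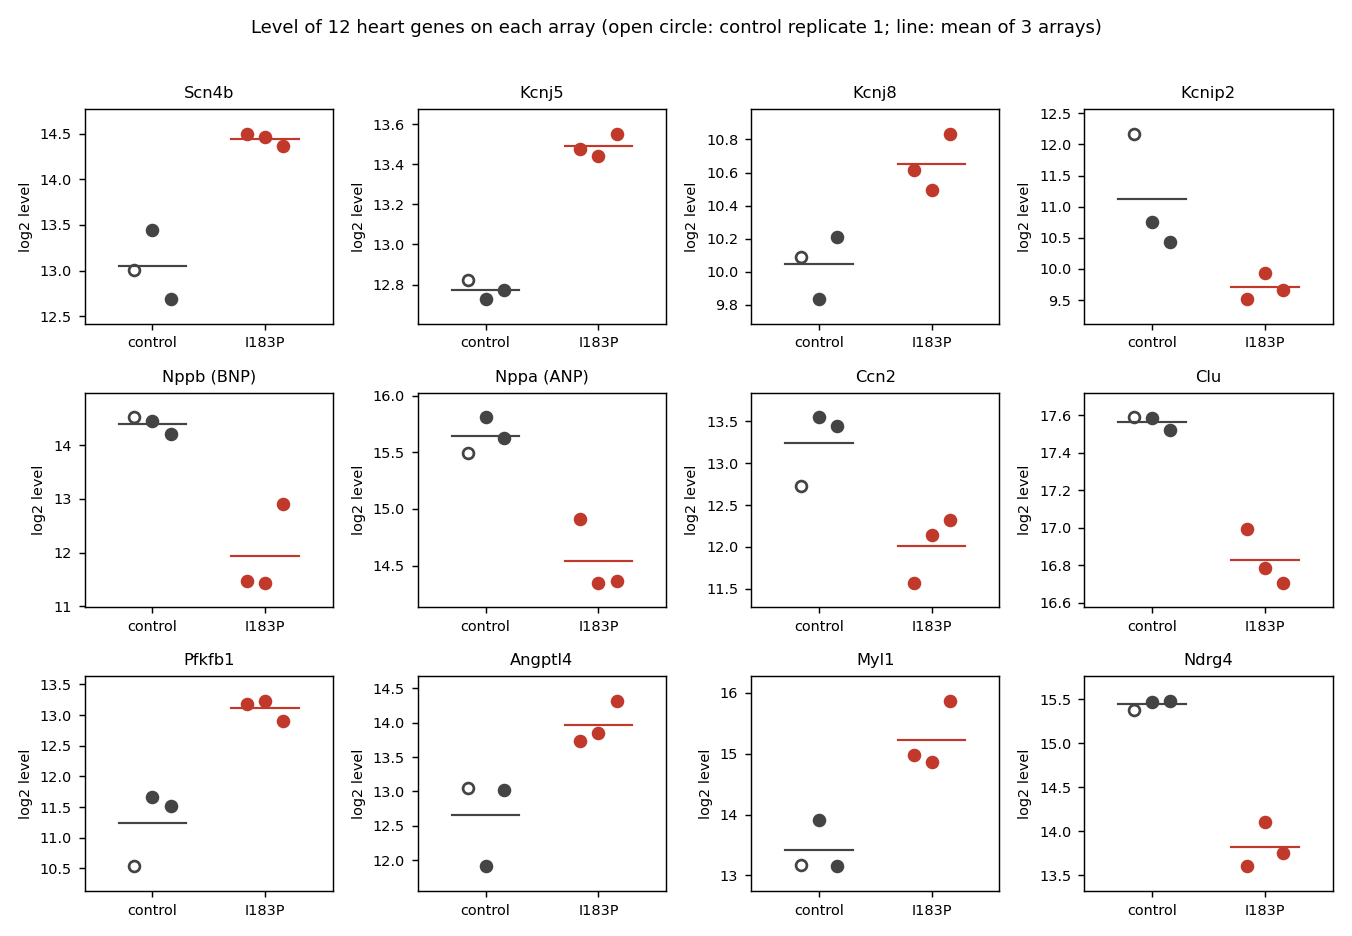
Log2 level on each control and I183P array of 12 genes of ion channels, natriuretic peptides and stress, metabolism and muscle, with the mean of 3 arrays as a line and control replicate 1 as an open circle. The groups do not overlap in any of the 12 panels, and none of these genes passed the test with all arrays.

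Energy metabolism showed few differences beyond Pfkfb1. Of 68 genes of oxidative phosphorylation 31 read above 0 with a median of -0.01. With scaling to the 75th percentile all 68 read above 0 with a median of 0.49. Ndufa11, a subunit of complex I, differed by -0.33 ± 0.10 (SE, adjusted p = 0.49 in limma) and turned to 0.12 with scaling to the 75th percentile. Of 40 genes of fatty acid uptake and oxidation 27 read above 0 (median 0.08, the value of all features), and of 31 genes of glycolysis and glucose oxidation 17 did (median 0.00). Angptl4, an inhibitor of lipoprotein lipase and a target of PPAR receptors, read 13.05, 11.92 and 13.02 in controls and 13.73, 13.85 and 14.31 in I183P hearts. Pfkp, the platelet form of phosphofructokinase, differed by -0.76 ± 0.18 (SE, adjusted p = 0.313). A second, dimmer probe of Pfkp gave 0.44, so its probes disagreed. None of these genes passed.

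**Figure D4:**
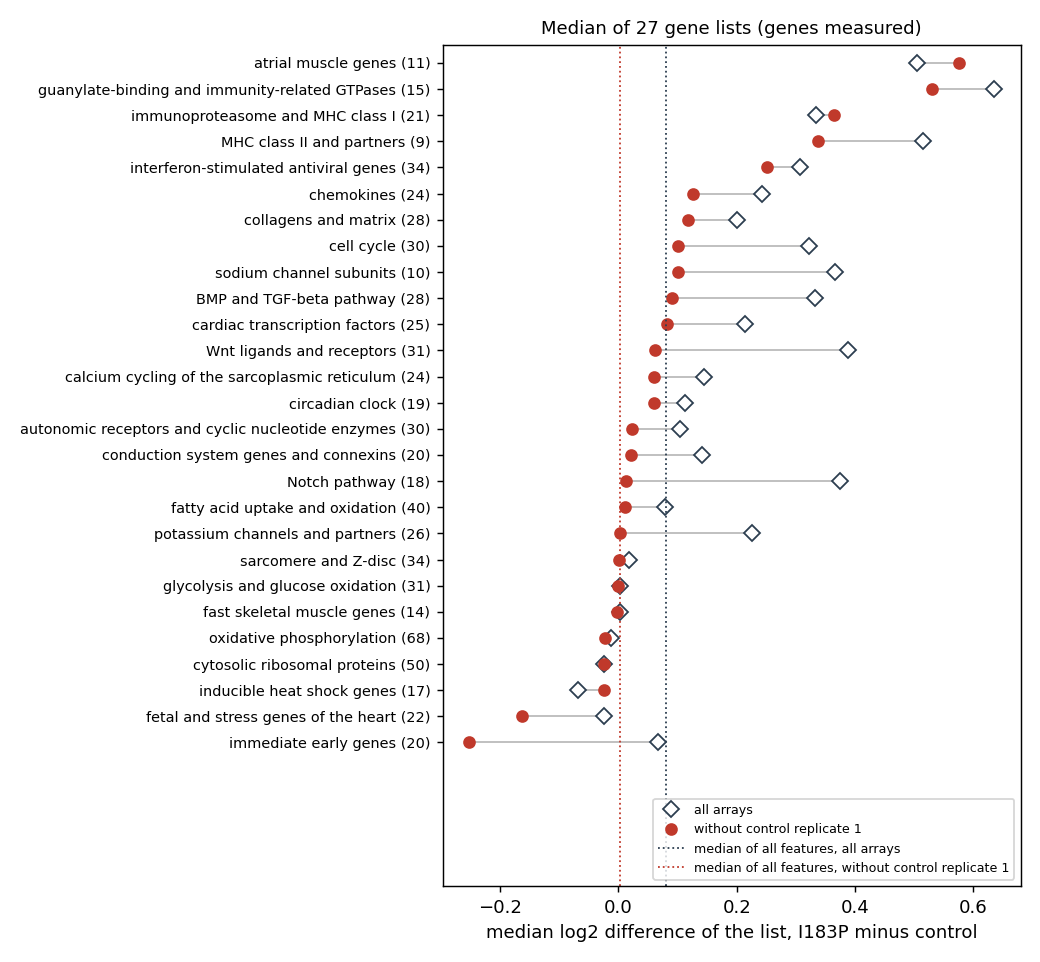
Median log2 difference, I183P minus control, of 27 gene lists (genes measured in brackets), with all arrays (diamonds) and without control replicate 1 (circles). Dotted lines mark the medians of all features, 0.08 and 0.0028. The lists of interferon-linked genes and the atrial muscle list lie furthest to the right without control replicate 1. They lie to the right of both lines in both analyses, as do others such as chemokines, collagens and matrix, and cell cycle. The Wnt, Notch and sodium channel medians move toward the line without control replicate 1.

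Genes of the interferon response and of antigen presentation read higher in I183P hearts as groups, although no single member passed the test. Guanylate-binding proteins and immunity-related GTPases, which cells make in response to interferon gamma to attack microbes within them, had the highest median of the 27 pathway lists with all arrays. Of 15 measured, 14 read above 0 with a median of 0.64, and 8 lay above all controls, beside 11% of all features. Without control replicate 1, 14 read above 0, the median was 0.53 and 10 lay above both other controls, beside 15.5% of all features. The atrial muscle list, whose genes Myl7 and Sln did not follow the genotype, had a higher median there. It was 0.57, with 6 of 11 above 0, and 0.51 with all arrays, with 8 of 11 above 0. Among 21 genes of the immunoproteasome and of MHC class I, which cut and display peptides to T cells, all 21 read above 0 (median 0.33) and 11 lay above all controls. Without control replicate 1, 20 read above 0 (median 0.36) and 17 did not overlap. Of 34 interferon-stimulated antiviral genes 28 read above 0 (median 0.31, 17 above all controls), and without that array 29 did (median 0.25, 24 above both other controls). The 4 medians, MHC class II included, stayed above 0 in every alternative run. Their lowest values were 0.41, 0.23, 0.19 and 0.27 for GTPases, class I, antiviral and class II genes. The median of all features itself reached 0.49 without the quantile step. Other lists also stayed above 0, among them endothelium (lowest 0.19) and the BMP and TGF-beta pathway (lowest 0.09).

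The promoters of the GTPases are shown because members share a sequence. The list holds genes that cells make in response to interferon, so this sequence was likely in it whatever the line. The interferon-stimulated response element is the site of STAT and IRF proteins, and its core repeat was searched as GAAANNGAAA on both strands of the 250 bases before the gene's start. A RefSeq window was found for 9 of the 15 GTPases, and the repeat was in all 9 (Gbp2, Gbp3, Gbp5, Gbp7, Igtp, Irgm1, Irgm2, Tgtp1 and Tgtp2), against 3.04% of all 27025 windows. It was in 8 of 25 windows of antiviral genes (32%), in 2 of 17 of class I genes (11.8%) and in none of the 18 windows of the features that passed without control replicate 1. The windows of Irgm2 and Igtp share a run of 55 identical bases, so the family's windows are not independent. Among the 9 GTPases with the repeat the difference ran from -0.01 for Gbp7 to 1.22 for Gbp5. A match describes the letters only, and its part in the levels was not tested. In the following windows of GRCm38.p6, written 5′ to 3′ in the direction of the gene, capitals mark the repeat or its reverse complement.
Irgm2 (chr11:58214727-58214976, plus strand): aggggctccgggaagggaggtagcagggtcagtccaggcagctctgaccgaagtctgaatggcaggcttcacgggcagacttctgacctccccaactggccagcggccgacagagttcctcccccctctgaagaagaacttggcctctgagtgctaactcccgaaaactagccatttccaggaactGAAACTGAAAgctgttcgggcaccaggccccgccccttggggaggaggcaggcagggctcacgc
Gbp3 (chr3:142559794-142560043, plus strand): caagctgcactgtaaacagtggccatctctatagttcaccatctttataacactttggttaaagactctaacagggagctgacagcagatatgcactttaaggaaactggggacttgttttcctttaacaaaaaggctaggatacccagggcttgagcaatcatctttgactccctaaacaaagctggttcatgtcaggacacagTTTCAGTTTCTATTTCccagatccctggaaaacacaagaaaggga
Gbp5 (chr3:142496684-142496933, plus strand): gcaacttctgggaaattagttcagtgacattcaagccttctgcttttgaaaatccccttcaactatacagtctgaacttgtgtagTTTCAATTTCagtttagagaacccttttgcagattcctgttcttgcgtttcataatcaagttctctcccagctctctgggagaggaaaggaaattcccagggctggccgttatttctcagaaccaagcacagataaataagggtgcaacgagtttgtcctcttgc
The repeat lies 64 bases before the start in Irgm2 and 165 before it in Gbp5, and the Gbp3 window holds a pair of overlapping copies, the first 45 bases before the start.

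Irgm2, a GTPase that regulates the others of its family, read 10.75, 10.96 and 11.32 on the control arrays and 11.60, 11.88 and 12.13 on the I183P arrays. Its difference was 0.86 ± 0.17 (SE, adjusted p = 0.263 in limma) and 0.75 without control replicate 1. Gbp5, a guanylate-binding protein that promotes inflammasome assembly, read 7.65, 8.69 and 8.99 against 9.64, 9.61 and 9.74 (1.22, and 0.87 without control replicate 1). For Gbp4 the values were 8.03, 9.33 and 9.64 against 10.31, 10.18 and 10.92 (1.47, and 1.03 without it). Gbp3 read 9.75, 10.29 and 10.26 against 10.70, 10.62 and 11.04 (0.69, and 0.53 without it). In all 4 the I183P arrays lay above all controls, and control replicate 1 was the lowest array.

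Of the 3 catalytic subunits of the immunoproteasome, Psmb8 and Psmb9 lay above all controls, and Psmb10 overlapped them. Psmb8 read 10.24, 10.44 and 10.60 in controls and 11.02, 11.06 and 11.10 in I183P hearts, a difference of 0.63 ± 0.13 (SE, adjusted p = 0.263 in limma). Psmb10 read 14.57, 14.42 and 14.35 against 14.58, 14.58 and 14.49. Psmb9 read 10.92, 10.32 and 10.48 against 11.16, 11.23 and 11.43, a difference of 0.70 ± 0.17 (SE, adjusted p = 0.356), and 0.90 without control replicate 1 (adjusted p = 0.0672). Tap2, which carries peptides into the endoplasmic reticulum, read 12.30, 12.26 and 12.19 against 12.49, 12.56 and 12.59. Stat2, which transmits the type I interferon signal, differed by 0.84 (0.53 without control replicate 1), and Ifit3, an antiviral protein induced by it, by 0.73 ± 0.16 (SE, adjusted p = 0.288). Ifi35, an interferon-induced protein, went the other way with -0.31, which turned to 0.25 without the quantile step.

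MHC class II genes, which antigen-presenting cells express, read above 0 in 7 of 9 members with a median of 0.52, and in 9 of 9 with a median of 0.34 without control replicate 1. H2-Ab1, a class II beta chain, read 14.40, 14.03 and 14.39 on the control arrays and 14.60, 14.87 and 15.24 on the I183P arrays. H2-Eb1, another beta chain, differed by 0.66, Cd74, the invariant chain, by 0.52, and H2-DMb1, which helps to load peptides, by 1.24 (0.79 without control replicate 1). The adjusted p of these genes lay between 0.472 and 0.49 in limma.

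Values that moved with these groups are given beside them. The mean level of the GTPase list was 9.83, 9.90 and 10.18 on the control arrays and 10.39, 10.46 and 10.78 on the I183P arrays. It was 10.04, 10.17 and 10.01 on the I183M arrays, and 10.55, 10.50 and 10.66 on the delta arrays, all of which lay on the second slide. With slide as a block the median difference of the list was 0.44, and on the first slide alone it was 0.43. The class I list read 11.60, 11.68 and 11.81 in controls, 11.64, 11.83 and 11.67 in I183M, 11.997, 12.05 and 12.20 in I183P and at least 11.89 in delta hearts, with a median of 0.26 in both slide settings. Markers of white blood cells, which make and answer interferon, also read somewhat above 0. Of 15 markers of T and NK cells 11 did, with a mean level between 7.87 and 8.10 in controls and between 7.97 and 8.13 in I183P hearts, and Klrb1c, Ncr1 and Tcf7 were not well above background. With scaling to the 75th percentile the median of the T and NK list, 0.21 here, was -0.14. Of 16 macrophage markers 11 read above 0, with a mean level between 9.74 (control replicate 1) and 10.22 in controls and between 10.13 and 10.46 in I183P hearts. Of 11 B cell markers 9 read above 0 (median 0.35). Without control replicate 1 the medians were 0.13 for T and NK cells, 0.05 for macrophages and 0.11 for B cells. The part of these cells in the higher interferon-linked levels was not tested, and in bulk tissue more cells of a type and more RNA per cell cannot be told apart.

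**Figure D5:**
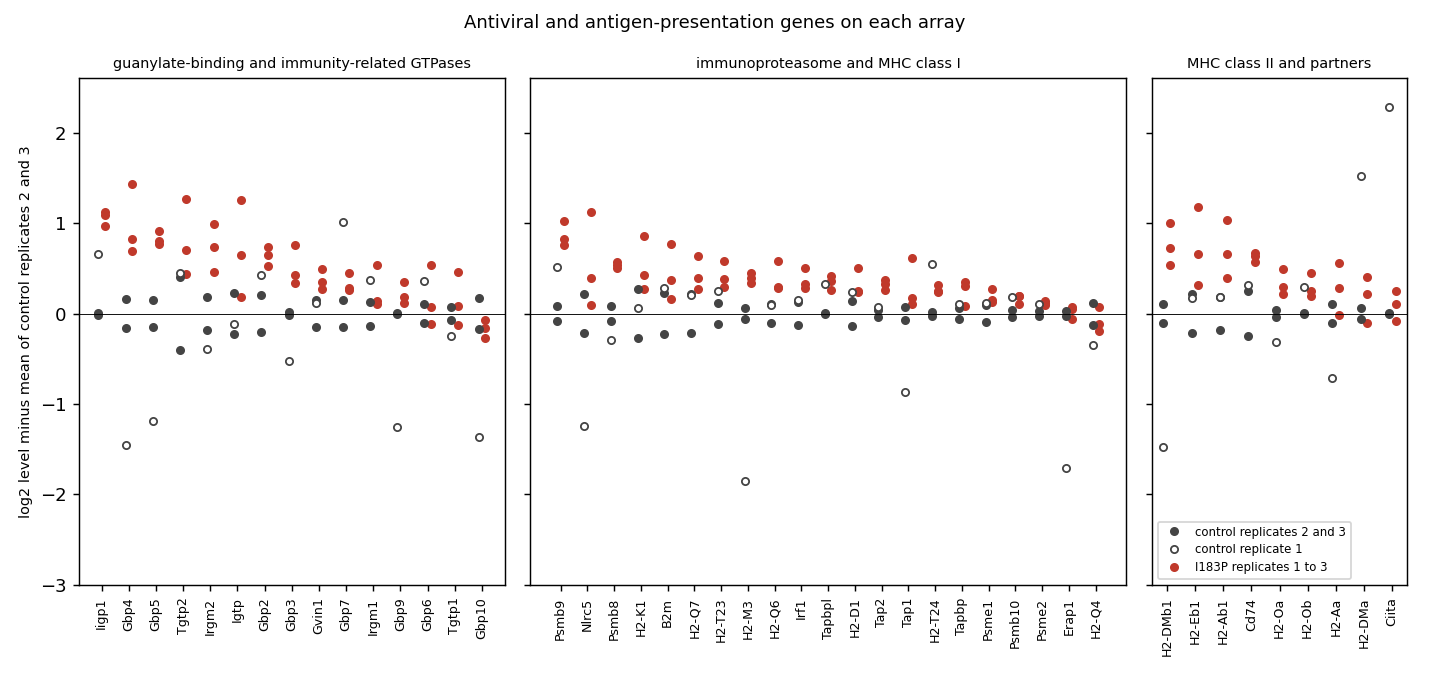
Log2 level on each array of the measured GTPase, MHC class I and immunoproteasome, and MHC class II genes, minus the mean of control replicates 2 and 3, with control replicate 1 as an open circle. The I183P points lie mostly above the zero line in all 3 panels, with single genes such as Gbp10 and H2-Q4 below it, and control replicate 1 scatters widely.

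Genes of the Notch, Wnt, and BMP and TGF-beta pathways read higher with all arrays, and most of that shift was lost without control replicate 1. Of 18 Notch pathway genes 15 read above 0 with a median of 0.37, and 10 with a median of 0.01 without it. The 31 Wnt ligands and receptors gave 27 above 0 and a median of 0.39, and then 19 and 0.06. The 28 genes of the BMP and TGF-beta pathway gave 22 and 0.33, and then 18 and 0.09. Notch3, the receptor of vascular smooth muscle, differed by 0.36 and kept 0.35. Fzd7, a Wnt receptor, differed by 0.51 ± 0.10 (SE, adjusted p = 0.263 in limma) and by 0.61 without control replicate 1 (adjusted p = 0.0757). Bmp7, a ligand, was lower: it read 8.67, 8.61 and 8.65 in controls and 7.96, 7.99 and 7.53 in I183P hearts, a difference of -0.82 ± 0.18 (SE, adjusted p = 0.288). Tgfb2, a ligand of the TGF-beta family, differed by 0.75 ± 0.20 (SE, adjusted p = 0.414), and Sfrp5, a secreted Wnt inhibitor, by 1.90 ± 0.57 (SE, adjusted p = 0.49).

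Most endothelial markers read slightly higher in I183P hearts in both analyses. Of 18 endothelial markers 14 read above 0 (median 0.24), and 13 without control replicate 1 (median 0.23). Pecam1 (-0.24), Esam (-0.27), Sox18 (-0.17) and Robo4 (-0.08) read below 0 in both analyses, and Sox17 did without that array (-0.37). The mean level of the 18 lay between 12.18 and 12.35 on control arrays and between 12.46 and 12.56 on I183P arrays. Of 13 markers of smooth muscle and pericytes 11 read above 0 (median 0.36), and 8 without control replicate 1 (median 0.22), where Mylk, Myh11 and Rgs5 lay below 0. Cdh5, the cadherin of endothelial junctions, differed by 0.38 ± 0.10 (SE, adjusted p = 0.415 in limma), and Pdgfrb, the receptor that marks pericytes, by 0.54 ± 0.12 (SE, adjusted p = 0.288). Mgp, an inhibitor of calcification made by vessels and fibroblasts, differed by 0.47. Of 14 fibroblast markers 11 read above 0 in both analyses (medians 0.20 and 0.11), and of 28 collagen and matrix genes 22 and 20 did (medians 0.20 and 0.12). None of these genes passed the test.

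Set directly against the other substitution, I183P hearts did not differ from I183M hearts in any feature after adjustment. Of 26545 features 0 passed (0%), with all arrays and without control replicate 1, and 797 (3%) and 3028 (11.4%) had an unadjusted p below 0.05 in limma. Nkx2-5 differed by -0.02 between both lines. A p that misses the threshold does not show that the substitutions act alike.

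Against the delta line, 5 features passed (0.0188%), 4 of them higher in I183P hearts, and 10 passed without control replicate 1 (0.0377%). Pde5a, the phosphodiesterase of cyclic GMP, read 12.30, 12.47 and 11.45 in I183P hearts and 9.24, 9.44 and 9.34 in delta hearts, a difference of 2.74 ± 0.26 (SE, adjusted p = 0.0258 in limma). Slc49a4, a membrane transporter, read 11.32, 11.58 and 10.70 against 9.12, 9.15 and 9.11. For both genes every I183P array lay above every delta array. Against control the I183P differences were -1.14 for Pde5a (adjusted p = 0.307 in limma) and -1.02 for Slc49a4, and neither passed. All delta arrays and 1 I183P array lay on the second slide. With slide as a block none of these 5 features passed: the difference was 2.11 for Pde5a (adjusted p = 0.232 in limma) and 1.58 for Slc49a4 (adjusted p = 0.473). Without I183P replicate 1, or without replicate 2, 0 features passed.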

How the data were processed

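Total RNA was measured on 12 single-colour Agilent arrays, 3 for each of 4 lines. Per the labels' protocols it was labelled with Cy3 as amplified cRNA from samples with a high RNA integrity number. Per the file headers, Agilent Feature Extraction 11.0.1.1 (protocol GE1_1100_Jul11) read the images. The deposited scanner files give an intensity per spot and its local background, not normalized between arrays, with a probe layout on mm9. Per the submitters' processing notes limma was used, with no version. The authors' deposited table of log2 values, whose exact steps are not given in the sources used here, served as an alternative.

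Control and outlier spots were left out, the median intensity was background-corrected with normexp (offset 50), and log2 values were quantile normalized and averaged per probe. Accessions were matched without versions to a RefSeq table of GRCm38.p6, which named 27235 of 55681 probes. Each feature was read from its brightest probe, which had to exceed background clearly on 3 or more of the 11 arrays other than control replicate 1, and 96 probes with a missing value were left out. limma 3.58.1 in R 4.3.3 (lmFit, eBayes) was fitted over all 12 arrays, with Benjamini-Hochberg adjustment over 26545 features. The fit was tested on simulated data. Named genes are Nkx2-5, the features that passed with or without control replicate 1, the genes of smallest p in each direction, and the members of smallest p of each list. Further genes of known function were named with their levels after their values were seen. The values of some list members are not reported here. The members and the 45 gene lists were chosen with earlier results of these data known. Same-numbered I183P and control arrays did not deviate together (r = -0.04, -0.17 and 0.06), so arrays were not paired.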

Additional observations from a re-analysis of the deposited data

Results flagged for a closer look

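The 5 features that differed between the I183P and delta lines by a direct limma test show effects against the shared control line that were unequal in these 2 lines. The log2 differences, I183P minus delta, were 2.74 for Pde5a, 2.31 for the unnamed transcript at chr13:70745633-70776516 (mm9), 2.07 for Slc49a4 and 0.83 for Nkx2-5 (each with an adjusted p of 0.0258), and -1.32 for an unnamed transcript of chromosome 8 (adjusted p = 0.0448). Without control replicate 1, 10 features passed (0.0377%), 6 higher and 4 lower. With slide as a block none of these 5 features passed. Groups of 3 are too small for the test of single outlying values, which was not run; the array-wide departure of control replicate 1 is described above.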

How the results depend on the processing

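Against control, 3 features passed. The count was 1 with the processed intensity and quantile normalization, 0 without the quantile step (498 at an unadjusted p below 0.05; median of all features 0.49), 20 with cyclic loess (8 higher, 12 lower), 0 over the 6 arrays of both lines (1039 unadjusted), 694 with array weights (349 higher, 345 lower), 6 with an intensity trend and robust prior, and 0 on the first slide alone (1335 unadjusted). With the replicate block it was 1, although the numbers do not pair the arrays. Leaving out single control or I183P arrays gave 1 to 28: control replicate 1 28, and I183P replicate 1 or 2 1 each. The other settings gave 2 or 3.

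Against delta, 5 features passed. The count was 0 with scaling to the 75th percentile, 1 with slide as a block (none of these 5) and 0 with the replicate block. It was 0 to 10 on leaving out control replicate 1 or a single I183P array (10 without control replicate 1, 0 without I183P replicate 1 or 2). The first slide holds no delta array, so that alternative was not run there. Against I183M it was 0 in every setting run.

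Scgb1c1 lost its call with scaling to the 75th percentile (-3.60, adjusted p = 0.0777), without the quantile step (-3.11, 0.527) and over 6 arrays (-3.62, 0.310). Without the quantile step the direction turned for Syngr1 (0.033), Clu (0.039), Mybpc3 (0.51), S100a1 (0.34), Adcy5 (0.14), Ndufa11 (0.42) and Ifi35 (0.25), and with scaling to the 75th percentile for Mybpc3 (0.28) and Ndufa11 (0.12). The cause was not tested. No other direction turned among the 79 genes followed.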

Other observations

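Immediate early genes, which respond within minutes to handling and stimulation, read lower in I183P hearts once control replicate 1 was left out. Of 20 measured, 13 read above 0 with all arrays (median 0.07) and 4 without that array (median -0.25), and none passed the test. Nr4a1, a nuclear receptor of this group, read 10.88, 13.76 and 12.13 on control replicates 1 to 3 and 11.31, 11.50 and 11.30 on I183P replicates 1 to 3. The control arrays spanned a far wider range than the I183P arrays. Of 30 cell cycle genes 25 read above 0 with a median of 0.32, and 23 with a median of 0.10 without control replicate 1. Of 50 cytosolic ribosomal protein genes 14 read above 0 with all arrays and 13 without control replicate 1, beside 60.7% and 50.6% of all features. Their median was -0.02 in both analyses. This direction depended on the scaling: with the 75th percentile of each array as reference all 50 read above 0. Their median was then 0.46, while that of all features was 0.14.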
